A study of Mus musculus with 22 samples.

Results

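Myeloid cultures from mice without VISTA were compared between hypoxia and normoxia, in 8 of the 22 libraries of the series. VISTA is an immune checkpoint protein of myeloid and T cells, encoded by Vsir. The compared groups were 4 VISTA knockout (KO) libraries from hypoxia, collected after 24 hours, and 4 KO libraries from normoxia, collected at day 4. The cells were myeloid cells of bone marrow from C57BL/6N mice, and the allele behind the knockout, the oxygen level and the sex of the animals are not given in the sources used here. For the normoxia cultures, the submitters describe progenitors grown with GM-CSF and IL-6 from which myeloid-derived suppressor cells (MDSC) were purified, and count 4 independent biological replicates. For the hypoxia cultures neither the cytokines, nor a purification, nor the origin of the replicates is described, so p-values measure the spread between these libraries, which may be technical. The libraries were chosen by their columns, KO replicates 1 to 4 of the hypoxia count table and KO replicates 1 to 4 of the normoxia count table. Wild-type (WT) cultures of both conditions, with 4 libraries each, were used for 1 further question, whether the response differed between the genotypes.

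The length of the culture and the table a library stands in differed together with oxygen. Everything reported below as hypoxia against normoxia is therefore a difference between 24 hours in hypoxia in one table and day 4 in normoxia in the other. Oxygen, time and table cannot be told apart in the KO comparison.

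Cells sense oxygen through the prolyl hydroxylases of the EGLN family, which mark the alpha subunits of the hypoxia-inducible factors (HIF) for destruction by the VHL ubiquitin ligase while oxygen is present. When oxygen falls, HIF-1 alpha and HIF-2 alpha persist, pair with ARNT and raise genes of glucose uptake, glycolysis, vessel growth and mitochondrial turnover. MDSC are immature neutrophil-like and monocyte-like cells that restrain T cells, among other means through arginase, nitric oxide and prostaglandins, and HIF-1 alpha is known to act on these functions in tumors.

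The hypoxia table listed 33265 Ensembl genes and the normoxia table listed 23912, of which 23187 stood in both. Total counts per library were 30839108 to 30911687 in hypoxia KO and 23409142 to 23722932 in normoxia KO. Each hypoxia KO library had a count for 25260 to 25807 genes, against 20266 to 20555 genes in normoxia KO libraries. After random thinning to the smallest library total, hypoxia KO libraries still had a count for 24117 to 24643 genes and normoxia KO libraries for 20241 to 20555. The part of this gap in the results below was not tested. Protein-coding genes of the mitochondrial genome took 3.65% to 4.88% of the counts in hypoxia KO and 4.37% to 5.51% in normoxia KO. In a principal component analysis of the 8 libraries, the first component held 76.0% of the variance and separated hypoxia from normoxia. Normoxia KO replicate 4 stood apart on the second component, which held 9.33%, at 39.7 against -23.8 to 9.12 for the other 7 libraries. Counts that change by over 1.5 times, or change their balance of higher and lower genes, without that library are given both ways.

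Vsir itself (ENSMUSG00000020101) had 163, 171, 163 and 117 CPM (counts per 1000000 counts of the TMM-adjusted library) in the 4 hypoxia KO libraries, in replicate order, against 132, 138, 176 and 237 CPM in the 4 normoxia KO libraries. WT libraries had 552, 630.3, 534 and 549.7 CPM in hypoxia and 629.6, 628, 818 and 659.9 CPM in normoxia. These Vsir levels were scaled over all 16 culture libraries, and later CPM levels of single genes over the 8 KO libraries unless WT is named. Every KO library lay below every WT library, and the KO groups of hypoxia and normoxia overlapped. Between the KO groups the log2 fold change was -0.14 ± 0.18 SE, and permuting the group labels over log2(CPM + 1) gave an exact two-sided p = 0.657, where 0.0286 is the smallest p the design allows. Without normoxia KO replicate 4 the log2 fold change was 0.041. The labels do not say which part of the gene was deleted, so the remaining reads are not a measure of remaining protein.

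Of 14641 genes tested with edgeR over the 8 KO libraries, 7015 (47.9%) passed an adjusted p of 0.05, here termed called. Called genes were higher in hypoxia in 3640 cases (24.9%) and lower in 3375 cases (23.1%), and the median log2 fold change of all genes tested was -0.02. At least 2-fold changes were less even, with 1481 genes higher (10.1%) and 517 lower (3.53%). All 4 hypoxia KO libraries lay above all 4 normoxia KO libraries in 3383 genes (23.1%) and below them in 3010 (20.6%). Counts of list members, and groups described below as apart or without overlap, are to be read beside these shares. With libraries scaled by their total alone, 2983 genes were higher and 4483 lower, around a median of -0.12. Without normoxia KO replicate 4, 4199 were higher and 4006 lower. Directions below are relative to the median of all genes, and a list whose balance turns under the scaling by totals is named as such. Values in parentheses after CPM levels are edgeR log2 fold changes of hypoxia KO over normoxia KO with their standard error (SE), and levels stand in replicate order. Several of the named genes have near-identical copies or processed pseudogenes with which reads could be shared, among them the Ear, Oas1, Ifit3 and Ly6c genes, glycolysis genes such as Pgk1 and Gapdh, and ribosomal protein genes, so their own values are less certain. In bulk RNA, more cells of a type and more RNA per cell cannot be told apart.

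**Figure D1:**
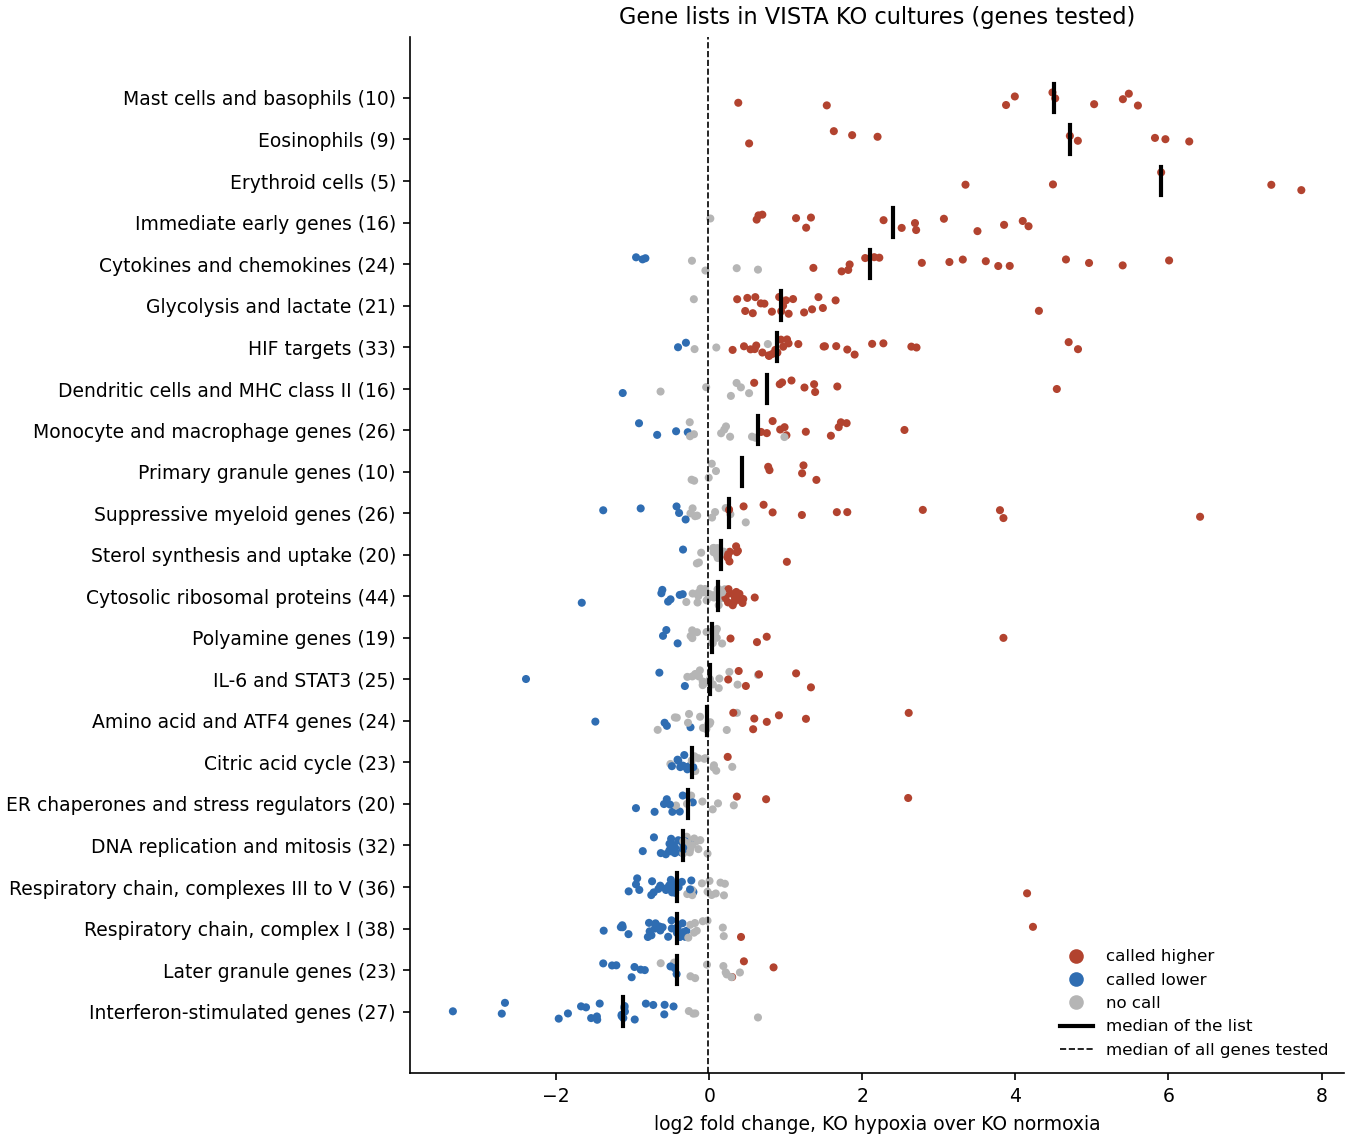
Log2 fold changes of the members of 23 gene lists, hypoxia KO over normoxia KO, 1 point per gene tested, with the median of each list as a black bar and the median of all genes as a dashed line. Mast cell, eosinophil, erythroid, immediate early and cytokine lists lie furthest to the right, glycolysis and HIF targets lie around 0.9, and the respiratory chain, later granule and interferon-stimulated lists lie to the left.

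Markers of the labelled myeloid cells were abundant in both groups. Spi1, which encodes the PU.1 factor of myeloid cells, had 511, 507, 515 and 502 CPM in hypoxia KO against 533, 553, 619 and 542 CPM in normoxia KO. Ptprc, the CD45 gene of all leukocytes, had 604, 559.6, 589.6 and 512 CPM in hypoxia KO and 522, 488, 646 and 823 CPM in normoxia KO. Neither gene passed the test. The summed level of 10 myeloid identity genes was 8003 to 10549.8 CPM in hypoxia KO and 12805 to 18016 CPM in normoxia KO, with no overlap. Lyz2, the lysozyme gene of myeloid cells, was the most abundant of them, at 6178, 5219, 4698 and 3778 CPM in hypoxia KO against 7440.4, 7328, 9828 and 12944 CPM in normoxia KO. Most of the gap between the summed levels of the groups came from Lyz2. Of these 10 genes 1 was higher and 4 lower, 2 and 2 without normoxia KO replicate 4, and 1 and 2 without hypoxia KO replicate 2.

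Genes of eosinophils, mast cells and basophils were far more abundant in hypoxia KO than in normoxia KO. All 9 eosinophil genes and all 10 tested mast cell and basophil genes were higher, with median log2 fold changes of 4.71 and 4.502. Epx, the eosinophil peroxidase gene, had 1931, 2127, 1161 and 1693 CPM in hypoxia KO, against 18.7, 30.0, 9.54 and 31.3 CPM in normoxia KO. Prg2, which encodes the major basic protein of eosinophil granules, had 1294, 1311, 738 and 991 CPM in hypoxia KO, against 13.6, 20.5, 13.4 and 22.1 CPM in normoxia KO. In both genes every hypoxia library exceeded every normoxia library by a wide margin, and hypoxia KO replicate 3 was the lowest of its group. The log2 fold changes were 6.27 ± 0.38 SE for Epx and 5.96 ± 0.25 SE for Prg2 (edgeR adjusted p = 6.30e-07 and 3.98e-08). Ear1, a granule ribonuclease gene with near-identical copies between which reads could be split, changed by 5.82.

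Among mast cell and basophil genes, the protease genes Cpa3, Mcpt8 and Prss34 led. Cpa3, the mast cell carboxypeptidase gene, had 158, 160.4, 132 and 191 CPM in hypoxia KO, against 2.42, 3.85, 3.01 and 3.92 CPM in normoxia KO (5.60 ± 0.17 SE, edgeR adjusted p = 2.60e-09). Mcpt8, a basophil protease gene, had 161, 146, 109 and 169 CPM in hypoxia KO, against 2.58, 3.82, 3.14 and 3.54 CPM in normoxia KO. Gata2, a transcription factor of mast cell and basophil development, had 169, 161, 124 and 153 CPM in hypoxia KO, against 3.49, 4.48, 2.47 and 3.84 CPM in normoxia KO. No library of either group came near the other group in these 3 genes. Kit, the stem cell factor receptor gene, which progenitors also express, differed less, at 50.8, 47.0, 39.7 and 46.8 CPM in hypoxia KO against 31.1, 35.9, 36.5 and 38.2 CPM in normoxia KO (0.38). Fcer1a and Ms4a2, which encode chains of the high-affinity IgE receptor, rose by 4.48 and 3.99 on the log2 scale.

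Summed over the lists, eosinophil genes had 2212 to 3897 CPM in hypoxia KO and 132 to 178 CPM in normoxia KO. Mast cell and basophil genes had 768 to 1084 CPM in hypoxia KO, where Mcpt4 had no count, and 96.7 to 122 CPM in normoxia KO, where Mcpt4, Tpsab1 and Cma1 had none or were not listed. Erythroid genes had 9.24 to 16.9 CPM in hypoxia KO and 0.211 to 0.506 CPM in normoxia KO, where Car1 and Slc4a1 had no count or were not listed. None of the 3 sums overlapped between the groups, and in WT libraries the same sums were higher in hypoxia too. The globin genes behind the erythroid sum stayed low, with Hba-a1 at 2.77, 4.79, 5.53 and 3.17 CPM in hypoxia KO and 0.0396, 0, 0.0418 and 0 CPM in normoxia KO, and their near-identical copies could share reads.

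T and NK cell genes summed to 76.8 to 94.0 CPM in hypoxia KO and 135 to 318 CPM in normoxia KO. Thy1 alone made up most of that, at 68.3, 70.0, 63.5 and 84.5 CPM in hypoxia KO against 239, 286, 195 and 116 CPM in normoxia KO (-1.55 ± 0.22 SE, edgeR adjusted p = 0.000229). Cd3e, Cd8a, Ncr1, Klrb1c and Gzma, more specific genes of these cells, had no count or were not listed in normoxia KO. Lck, a T cell kinase gene, was higher, at 1.37, 1.08, 0.800 and 1.16 CPM in hypoxia KO against 0.476, 0.551, 0.251 and 0.302 CPM in normoxia KO (1.46 ± 0.29 SE). Of the 4 genes tested 1 was higher, 1 was lower and 2, Cd3d and Cd28, were not called. Cd3d, also specific to T cells, had 17, 17, 16 and 14 raw counts in hypoxia KO and 6, 20, 29 and 25 in normoxia KO. Without a filter on low counts 5 genes of the list were higher and 1 lower. Of 6 tested B and plasma cell genes 2 were higher and 4 were not called, with sums of 127 to 208 CPM in hypoxia KO and 96.7 to 147 CPM in normoxia KO. Of 4 tested fibroblast and endothelial genes 3 were higher, with sums of 146 to 159 CPM in hypoxia KO and 63.8 to 68.5 CPM in normoxia KO, where Col1a2, Col3a1, Dcn and Lum had no count or were not listed. Pecam1 alone made up most of the fibroblast and endothelial sums. Without a filter on low counts 5 genes of the B and plasma cell list and 5 of the fibroblast and endothelial list were higher. Xist had counts, whereas the 4 Y-linked genes looked at had none or were not listed in any culture library. These marker levels move together with each gene group described below, and their part in those differences was not tested.

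**Figure D2:**
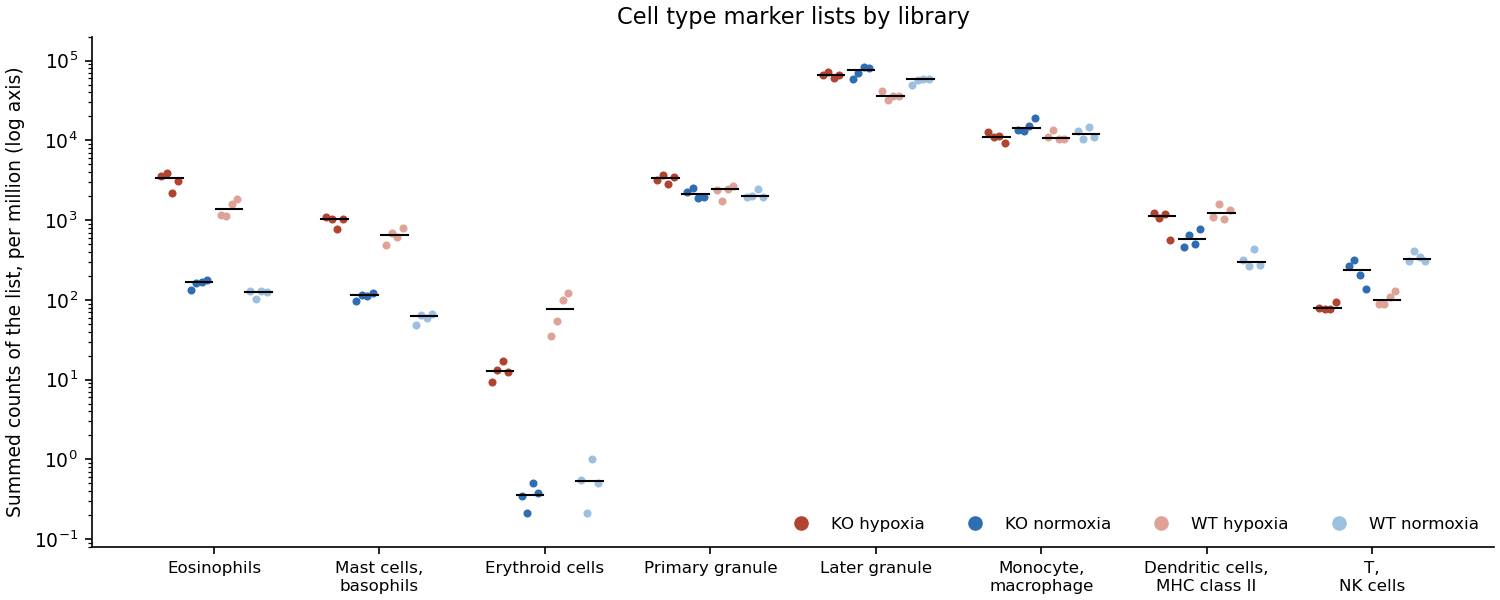
Summed CPM of 8 lists of lineage genes in each culture library on a log axis, 4 libraries per group, with the median of a group as a black bar. The sums are scaled by library totals, without TMM adjustment. Lyz2 makes up a large part of the monocyte and macrophage sums. Eosinophil, mast cell and erythroid sums are higher in hypoxia than in normoxia in KO and WT alike, whereas the monocyte and macrophage sums are lower in hypoxia KO than in normoxia KO and overlap between the WT groups, and the later granule sums overlap between the KO groups and are lower in hypoxia WT than in normoxia WT.

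The genes that HIF is known to raise were higher in hypoxia KO. Of 33 HIF targets tested, 28 were higher and 2 lower, with a median log2 fold change of 0.89. The promoters of the 4 called targets with the largest rises that a RefSeq table of promoters held (GRCm38.p6, from 250 bases before to 50 bases after a start site) are printed because they carry the core letters of a HIF response element. Capitals mark ACGTG or GCGTG on either strand, which read CACGT and CACGC on the other strand and can overlap. The windows are chr6:29272238-29272537, plus strand for Hilpda, 1 of its 2 listed start sites, chr11:31370012-31370311, minus strand for Stc2, chr11:54100674-54100973, plus strand for P4ha2 and chr7:138909457-138909756, minus strand for Bnip3.
Hilpda: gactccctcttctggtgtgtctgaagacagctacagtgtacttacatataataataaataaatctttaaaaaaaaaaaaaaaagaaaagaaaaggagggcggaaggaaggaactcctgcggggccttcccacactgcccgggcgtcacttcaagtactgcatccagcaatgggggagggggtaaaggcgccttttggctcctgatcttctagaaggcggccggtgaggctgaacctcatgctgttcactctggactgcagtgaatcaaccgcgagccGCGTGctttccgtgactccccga
Stc2: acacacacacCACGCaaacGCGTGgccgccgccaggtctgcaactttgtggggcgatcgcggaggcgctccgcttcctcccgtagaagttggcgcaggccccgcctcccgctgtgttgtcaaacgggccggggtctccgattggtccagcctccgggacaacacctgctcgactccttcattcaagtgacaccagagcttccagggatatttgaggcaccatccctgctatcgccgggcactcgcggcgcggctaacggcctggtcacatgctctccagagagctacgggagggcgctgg
P4ha2: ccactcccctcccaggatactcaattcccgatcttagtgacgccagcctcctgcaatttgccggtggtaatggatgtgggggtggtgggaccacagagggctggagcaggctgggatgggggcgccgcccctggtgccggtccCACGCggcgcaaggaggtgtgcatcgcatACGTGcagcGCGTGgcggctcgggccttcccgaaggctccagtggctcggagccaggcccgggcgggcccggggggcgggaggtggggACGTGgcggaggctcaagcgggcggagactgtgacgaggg
Bnip3: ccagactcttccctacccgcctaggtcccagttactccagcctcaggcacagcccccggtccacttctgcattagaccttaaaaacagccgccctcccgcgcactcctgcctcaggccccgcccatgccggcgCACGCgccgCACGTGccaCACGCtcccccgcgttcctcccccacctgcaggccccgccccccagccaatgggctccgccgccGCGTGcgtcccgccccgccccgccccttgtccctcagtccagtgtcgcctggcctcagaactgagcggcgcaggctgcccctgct
At least 1 such match stood in a promoter of each of the 21 called HIF targets found in the table, of 28 called. Over the whole list it was 26 of 27 genes, and over all 27025 genes of the table it was 46.7%. A match describes letters and is not a measurement of HIF binding.

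Hilpda encodes a lipid droplet protein that restrains lipid breakdown. It had 91.3, 62.7, 69.1 and 57.8 CPM in hypoxia KO, against 2.97, 2.99, 2.72 and 2.11 CPM in normoxia KO. The lowest hypoxia library was far above the highest normoxia library, and the log2 fold change was 4.70 ± 0.17 SE (edgeR adjusted p = 8.52e-09). Stc2, a secreted glycoprotein gene, had 14.5, 13.2, 12.8 and 16.8 CPM in hypoxia KO, against 3.13, 2.44, 1.72 and 1.42 CPM in normoxia KO (2.71 ± 0.21 SE, edgeR adjusted p = 1.55e-06). P4ha2, a collagen prolyl hydroxylase gene, stayed low, at 3.66, 3.004, 2.03 and 1.62 CPM in hypoxia KO against 0.515, 0.197, 0.795 and 0.129 CPM in normoxia KO. Its groups did not overlap either (2.64 ± 0.43 SE).

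Genes of mitochondrial turnover rose. Bnip3, which recruits the autophagy machinery to mitochondria, had 206, 171, 185 and 166 CPM in hypoxia KO, against 35.4, 28.7, 51.8 and 34.6 CPM in normoxia KO (2.28 ± 0.16 SE). Its relative Bnip3l had 408, 386, 412 and 401 CPM in hypoxia KO, against 184, 195, 239 and 258 CPM in normoxia KO (0.88 ± 0.11 SE). All hypoxia values lay above all normoxia values in both genes. Pdk1, whose kinase keeps pyruvate out of the citric acid cycle, had 158, 133, 147 and 133 CPM in hypoxia KO, against 48.1, 42.6, 49.6 and 40.1 CPM in normoxia KO (1.66 ± 0.09 SE, edgeR adjusted p = 2.18e-07).

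Secreted and stress-related targets rose as well. Vegfa, the vessel growth factor gene, had 327, 249, 248 and 216 CPM in hypoxia KO, against 78.3, 73.9, 72.5 and 73.1 CPM in normoxia KO (1.80 ± 0.12 SE, edgeR adjusted p = 4.70e-07). The normoxia libraries differed little from each other, and hypoxia KO replicate 1 was the highest. Ddit4, an inhibitor of mTORC1, had 38.2, 33.8, 32.5 and 36.7 CPM in hypoxia KO and 13.2, 10.8, 11.97 and 14.2 CPM in normoxia KO (1.49 ± 0.10 SE). The glucose transporter gene Slc2a1 had 253, 242, 242 and 218 CPM in hypoxia KO, against 126, 109, 108 and 84.1 CPM in normoxia KO (1.16 ± 0.11 SE), and Slc2a3 rose by 0.97 on the log2 scale. None of these groups overlapped.

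A few listed targets did not follow. Pfkfb4, which sets the level of a glycolysis activator, was lower, at 80.1, 82.9, 75.9 and 72.6 CPM in hypoxia KO against 87.5, 93.2, 100.4 and 132 CPM in normoxia KO (-0.41 ± 0.12 SE, edgeR adjusted p = 0.0146), and normoxia KO replicate 4 was its highest library. Anxa3, an annexin gene of neutrophils, was lower too (-0.30), a call lost without hypoxia KO replicate 3 or 4 or normoxia KO replicate 3 (edgeR adjusted p up to 0.106). Higd1a (-0.19), Mxi1 (0.09) and Car12 (0.77) did not pass the test. Adm and Ppp1r3c did not pass the filter on low counts.

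Among the regulators of the pathway, Hif1a had 244, 207, 198 and 179 CPM in hypoxia KO and 209.6, 191, 228 and 215 CPM in normoxia KO, with overlapping groups (-0.03 ± 0.10 SE, edgeR adjusted p = 0.84). Epas1, which encodes HIF-2 alpha, was lower in abundance and rose, at 9.65, 8.37, 7.96 and 7.23 CPM in hypoxia KO against 3.37, 2.52, 3.72 and 4.398 CPM in normoxia KO (1.25 ± 0.17 SE, edgeR adjusted p = 0.000113). Hif3a, a family member with several short forms, had 4.48, 3.78, 4.03 and 4.195 CPM in hypoxia KO and 0.238, 0, 0.167 and 0.129 CPM in normoxia KO (4.91 ± 0.35 SE). Arnt rose slightly (0.28). The prolyl hydroxylase genes moved unequally. Egln3, itself a HIF target, had 363, 310.1, 297 and 282 CPM in hypoxia KO, against 75.8, 68.4, 86.1 and 56.0 CPM in normoxia KO (2.13 ± 0.13 SE). Egln1 rose by 0.78, whereas Egln2 fell by 0.42 on the log2 scale, at 37.7, 37.5, 37.2 and 34.9 CPM in hypoxia KO against 49.4, 49.1, 49.5 and 48.8 CPM in normoxia KO. Siah2, a ubiquitin ligase gene that acts on prolyl hydroxylases, was lower (-0.76), and Vhl (0.04) and Hif1an (-0.18) were not called.

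**Figure D3:**
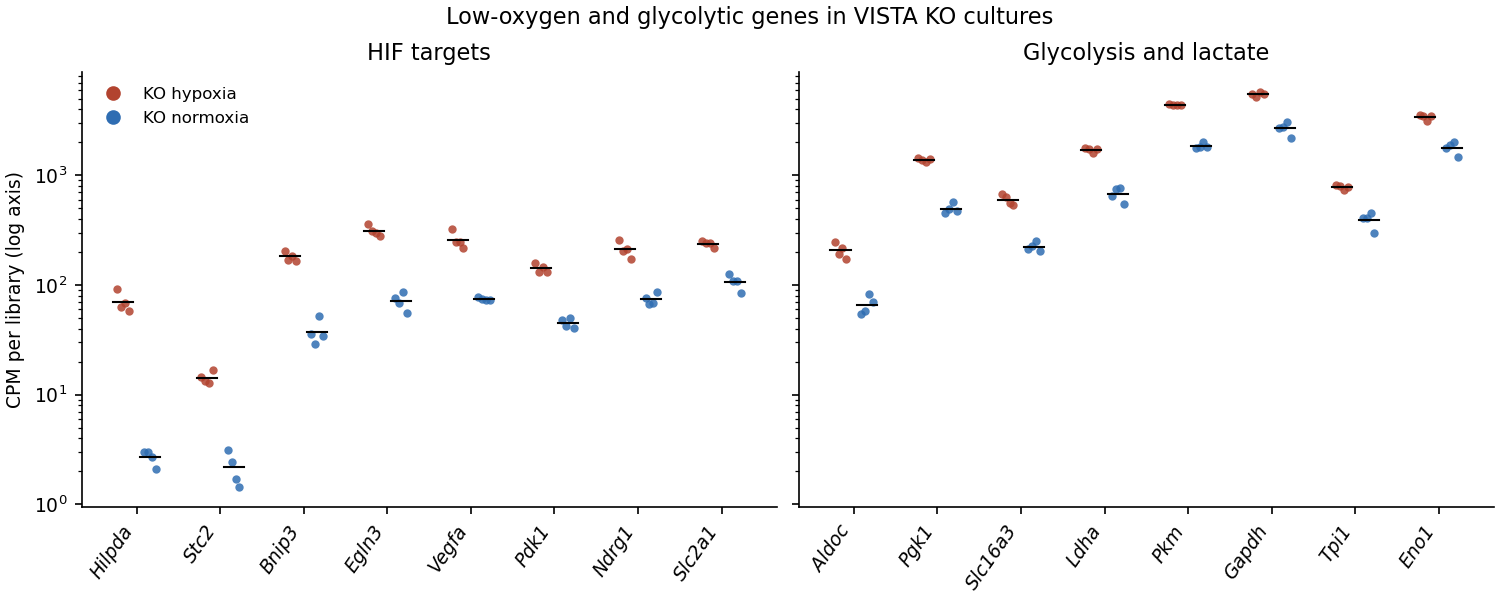
CPM of 8 HIF targets and 8 glycolysis and lactate genes in each KO library on a log axis, 4 hypoxia and 4 normoxia libraries per gene, with the mean of a group as a black bar. In all 16 genes the 4 hypoxia libraries lie above the 4 normoxia libraries, with the widest gap in Hilpda.

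Glycolysis genes were higher with little exception. Of 21 genes tested, 20 were higher in hypoxia KO and 1 was not called, with a median log2 fold change of 0.94, and 9 rose at least 2-fold. Pgk1, the phosphoglycerate kinase gene, had 1456, 1396, 1327 and 1404 CPM in hypoxia KO, against 452, 494, 576 and 473 CPM in normoxia KO (1.48 ± 0.09 SE, edgeR adjusted p = 3.37e-07). Pkm, the pyruvate kinase gene of most cells, had 4509, 4389, 4348 and 4354 CPM in hypoxia KO, against 1791, 1808, 2026 and 1830.2 CPM in normoxia KO (1.24 ± 0.08 SE). The spread within a group was small beside the gap between the groups for both genes.

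The lactate end of the pathway moved with it. Ldha, whose enzyme makes lactate from pyruvate, had 1783, 1749, 1596 and 1758 CPM in hypoxia KO, against 652, 745, 769 and 548 CPM in normoxia KO (1.34 ± 0.11 SE, edgeR adjusted p = 2.55e-06). Slc16a3, the lactate exporter gene MCT4, had 675, 630.3, 561 and 541 CPM in hypoxia KO, against 211, 227, 252 and 206 CPM in normoxia KO (1.43 ± 0.10 SE). Normoxia KO replicate 4 was the lowest library for both. Aldoc, an aldolase gene, rose by 1.65, and Eno2, an enolase gene best known from neurons, had 18.3, 10.02, 18.2 and 10.4 CPM in hypoxia KO and 1.39, 0.354, 0.586 and 0.517 CPM in normoxia KO (4.31 ± 0.36 SE). Hk3, the hexokinase gene of myeloid cells, was the gene without a call, at 334, 354, 293 and 317 CPM in hypoxia KO and 333, 395, 376 and 388 CPM in normoxia KO (-0.20), and was called lower without normoxia KO replicate 1.

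The pentose phosphate pathway, which branches from glycolysis, showed no common direction. Of 7 genes 2 were higher (28.6%) and 2 lower (28.6%), near the 24.9% and 23.1% of all genes tested. Pgls, an early enzyme of the pathway, rose by 0.36, whereas Rpe, of the branch that rearranges pentoses, changed by -0.53. G6pdx, the entry enzyme (0.22), and Rpia (-0.31) each lost their call when 1 of 5 libraries was left out, with edgeR adjusted p up to 0.0753 and 0.100. Without hypoxia KO replicate 3, 1 was higher and 1 lower, and 1 and 3 with libraries scaled by totals.

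Nuclear genes of the respiratory chain were called lower in most cases, and those of the citric acid cycle in fewer. In the citric acid cycle 10 of 23 genes were lower and 1 higher (median -0.23), and 14 and 0 without normoxia KO replicate 4. Sdha, the catalytic subunit gene of succinate dehydrogenase, had 116, 115, 111 and 122 CPM in hypoxia KO, against 153, 159, 149 and 154 CPM in normoxia KO (-0.40 ± 0.07 SE, edgeR adjusted p = 0.000468). Ogdh, the oxoglutarate dehydrogenase gene, had 186, 201, 179 and 189 CPM in hypoxia KO, against 271, 256, 245 and 234 CPM in normoxia KO (-0.41 ± 0.07 SE). The groups did not overlap in either gene, and the changes were small. Acly, which makes cytosolic acetyl-CoA, was the member called higher (0.24), and it lost the call when any 1 of 6 libraries was left out (edgeR adjusted p up to 0.129).

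In the list for complex I of the respiratory chain, grouped by gene name, 27 of 38 nuclear genes were lower and 2 higher (median -0.42). In complexes III to V, 23 of 36 were lower and 1 higher (median -0.42). Ndufa1 had 8.59, 8.57, 7.63 and 7.73 CPM in hypoxia KO, against 17.8, 20.9, 23.0 and 22.9 CPM in normoxia KO (-1.38 ± 0.11 SE, edgeR adjusted p = 1.95e-06). Ndufa4 is in this list by its name, although its product belongs to cytochrome c oxidase. It had 20.8, 22.2, 22.3 and 26.0 CPM in hypoxia KO, against 46.0, 59.6, 52.2 and 42.3 CPM in normoxia KO (-1.13 ± 0.11 SE). Cox7b, also of cytochrome c oxidase, had 41.3, 41.4, 38.4 and 47.0 CPM in hypoxia KO, against 79.3, 81.6, 90.3 and 75.0 CPM in normoxia KO (-0.96 ± 0.09 SE). All normoxia libraries exceeded all hypoxia libraries in these 3 genes.

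Many of the respiratory genes are short, taking the longest transcript of each gene, and short genes had a lower median. The short genes include members of these lists. Among protein-coding genes with a mean of at least 8 CPM, the median log2 fold change was -0.25 for the 267 genes with transcripts of 600 to 1000 bases and -0.05 for the 5214 genes above 3000 bases. The median transcript length was 1025.5 bases for complex I and 966.5 bases for complexes III to V. At most 1000 bases were found in 18 of 38 and 18 of 36 genes. With length taken into the fit as an offset, 28 and 27 genes of these lists were called lower. The same offset gave 3985 lower calls over all genes, against 3375 without it, and a median of all genes of -0.05 in place of -0.02. The part of transcript length in the remaining difference was not tested.

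Only 3 nuclear members rose, and 2 of them are isoforms linked to low oxygen. Cox4i2, the cytochrome c oxidase isoform used in low oxygen, had 3.90, 4.05, 2.77 and 3.40 CPM in hypoxia KO and 0.238, 0.236, 0.251 and 0.0431 CPM in normoxia KO (4.15 ± 0.30 SE, edgeR adjusted p = 1.14e-06). Its counterpart Cox4i1 had 137, 132, 142 and 132 CPM in hypoxia KO and 143, 167, 164 and 153 CPM in normoxia KO (-0.21). Ndufa4l2, a HIF target related to Ndufa4, had 3.25, 1.38, 0.833 and 1.02 CPM in hypoxia KO and 0, 0.0787, 0.167 and 0.0862 CPM in normoxia KO (4.23 ± 0.67 SE). Both isoforms stayed at a few CPM or less. Ndufa10, an accessory subunit gene of complex I, was the third (0.41).

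Of 13 genes of the mitochondrial genome 3 were higher (23.1%) and 5 lower (38.5%), against 24.9% and 23.1% of all genes tested. The largest fall was mt-Nd3, at 158, 151, 142 and 167 CPM in hypoxia KO against 416, 393, 469.6 and 433 CPM in normoxia KO (-1.47 ± 0.08 SE), and the largest rise was mt-Nd6, at 1544, 1271, 1845 and 1756 CPM in hypoxia KO against 581, 492, 592 and 618 CPM in normoxia KO (1.49 ± 0.12 SE). mt-Nd6 lies on the other strand than its neighbours and mt-Atp6 (0.80) overlaps mt-Atp8. With the strand setting of the counting unknown, reads of such genes cannot be assigned with certainty.

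Fatty acid oxidation was mixed, with 3 of 20 genes higher (15%) and 5 lower (25%), against 24.9% and 23.1% of all genes tested. Cpt1a, which controls fatty acid entry into mitochondria, had 165, 153, 159 and 146 CPM in hypoxia KO and 149, 131, 134 and 162 CPM in normoxia KO (0.12 ± 0.09 SE, edgeR adjusted p = 0.285), with overlapping groups. Etfb, an electron carrier gene, rose (0.98) and Acadl fell (-0.31). Without hypoxia KO replicate 1, or without hypoxia KO replicate 3, 3 were higher and 2 lower. Sterol synthesis and uptake genes were higher in 9 of 20 cases and lower in 1, but 3 and 2 with libraries scaled by totals. Insig1, a feedback regulator of sterol synthesis, stood out at 207, 209, 223 and 269.8 CPM in hypoxia KO against 107, 117, 112 and 113 CPM in normoxia KO (1.01 ± 0.09 SE).

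Immediate early genes, which cells switch on within minutes of a stimulus, were higher in hypoxia KO in 15 of 16 cases, 12 of them at least 2-fold. Jun, a subunit of the AP-1 factor, had 369, 380.1, 367 and 421 CPM in hypoxia KO, against 61.3, 59.6, 60.4 and 57.3 CPM in normoxia KO (2.69 ± 0.08 SE, edgeR adjusted p = 2.60e-09). Nr4a1, an orphan nuclear receptor gene, had 291, 242, 253 and 212 CPM in hypoxia KO, against 14.7, 14.6, 14.5 and 11.6 CPM in normoxia KO (4.17 ± 0.12 SE). Egr3, a zinc finger factor gene, had 133, 139, 84.4 and 95.2 CPM in hypoxia KO, against 8.21, 10.5, 7.82 and 4.61 CPM in normoxia KO (3.85 ± 0.24 SE). The normoxia groups were tight for Jun and Nr4a1, and no gene of the 3 showed overlap. Fosb rose by 4.10, Egr2 by 3.07 and Atf3 by 2.70, and Klf2 was the member without a call (0.01).

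Of 24 cytokine and chemokine genes tested, 17 were higher in hypoxia KO, each at least 2-fold, and 3 were lower (median 2.10). Il6 encodes the cytokine that was itself added to the normoxia cultures. It had 45.1, 41.4, 27.0 and 47.7 CPM in hypoxia KO, against 0.991, 1.30, 0.962 and 0.517 CPM in normoxia KO (5.40 ± 0.25 SE, edgeR adjusted p = 5.10e-08). Lif, a cytokine gene of the same family, had 42.4, 42.3, 27.0 and 37.6 CPM in hypoxia KO, against 1.51, 1.65, 1.92 and 0.776 CPM in normoxia KO (4.66 ± 0.23 SE). Osm, a further member, was more abundant, at 423, 417, 371 and 373 CPM in hypoxia KO against 41.7, 44.4, 46.6 and 26.6 CPM in normoxia KO (3.31 ± 0.16 SE). All hypoxia libraries lay above all normoxia libraries for these 3 genes.

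Inflammatory chemokine genes rose as well. Cxcl2, a chemoattractant of neutrophils, had 107, 119, 100.1 and 82.0 CPM in hypoxia KO, against 6.15, 5.04, 11.3 and 4.398 CPM in normoxia KO (3.93 ± 0.26 SE). Ccl3, which attracts monocytes, had 374, 353, 336 and 371 CPM in hypoxia KO, against 80.3, 80.8, 81.8 and 64.4 CPM in normoxia KO (2.22 ± 0.09 SE, edgeR adjusted p = 2.13e-08). Ccl4, a chemokine gene next to it in function, had 83.8, 75.6, 65.7 and 76.0 CPM in hypoxia KO, against 5.15, 6.49, 6.49 and 3.79 CPM in normoxia KO (3.78 ± 0.16 SE). Il1b, the interleukin-1 beta gene, had 207, 173, 177 and 104 CPM in hypoxia KO, against 11.5, 10.9, 17.0 and 14.7 CPM in normoxia KO (3.61 ± 0.22 SE). No groups overlapped, and in Il1b the lowest hypoxia library was replicate 4. Csf1, the macrophage growth factor gene, rose by 2.15.

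Not every inflammatory gene rose. Tnf was lower, at 19.6, 28.5, 25.1 and 29.0 CPM in hypoxia KO against 48.2, 55.5, 49.7 and 28.6 CPM in normoxia KO (-0.83 ± 0.19 SE, edgeR adjusted p = 0.00398), and its groups overlapped through replicate 4 of each. Ccl17 and Il27 were lower as well (-0.96 and -0.87), and Il1rn, Ccl6, Ccl22 and Cxcl10 were not called, although Ccl22 was called higher without hypoxia KO replicate 4 and Cxcl10 without hypoxia KO replicate 1. Il12b and Il23a did not pass the filter on low counts.

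**Figure D4:**
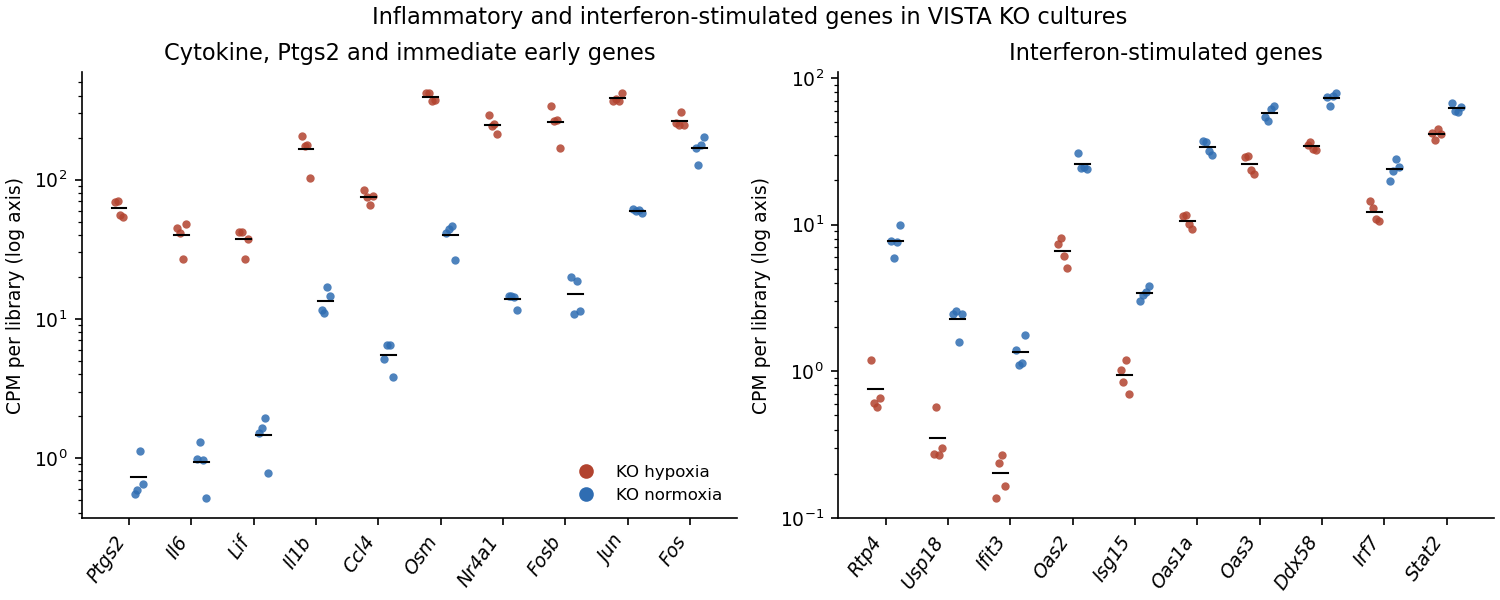
CPM of 10 cytokine, Ptgs2 and immediate early genes and of 10 interferon-stimulated genes in each KO library on log axes, 4 hypoxia and 4 normoxia libraries per gene, with the mean of a group as a black bar. Hypoxia libraries lie above normoxia libraries in all 10 genes on the left and below them in all 10 genes on the right.

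Interferon-stimulated genes moved the other way. Of 27 tested, 23 were lower in hypoxia KO and 0 higher, 17 of them at least 2-fold lower, with a median log2 fold change of -1.12. DESeq2 called 1 higher, and at an unadjusted p of 0.05 edgeR put 1 gene higher, Cxcl10 (0.64, edgeR adjusted p = 0.0651). The promoters of Ifit3 (chr19:34583279-34583578, plus strand), Isg15 (chr4:156200769-156201068, minus strand) and Oas1a (chr5:120907476-120907775, minus strand) are printed because they show the repeat that interferon-activated factors read. They were chosen after the values of these genes were seen. Capitals mark GAAANNGAAA on either strand, TTTCNNTTTC on the other, and matches can overlap.
Ifit3: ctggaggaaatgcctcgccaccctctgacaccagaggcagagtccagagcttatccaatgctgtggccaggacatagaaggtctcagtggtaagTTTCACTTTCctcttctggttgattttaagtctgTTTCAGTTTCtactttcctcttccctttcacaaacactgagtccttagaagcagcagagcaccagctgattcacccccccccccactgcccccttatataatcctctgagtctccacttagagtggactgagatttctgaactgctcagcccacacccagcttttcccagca
Isg15: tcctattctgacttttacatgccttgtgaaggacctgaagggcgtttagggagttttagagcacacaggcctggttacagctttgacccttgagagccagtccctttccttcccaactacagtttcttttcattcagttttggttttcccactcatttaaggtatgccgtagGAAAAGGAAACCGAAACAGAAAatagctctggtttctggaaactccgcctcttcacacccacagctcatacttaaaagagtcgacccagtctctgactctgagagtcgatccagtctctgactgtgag
Oas1a: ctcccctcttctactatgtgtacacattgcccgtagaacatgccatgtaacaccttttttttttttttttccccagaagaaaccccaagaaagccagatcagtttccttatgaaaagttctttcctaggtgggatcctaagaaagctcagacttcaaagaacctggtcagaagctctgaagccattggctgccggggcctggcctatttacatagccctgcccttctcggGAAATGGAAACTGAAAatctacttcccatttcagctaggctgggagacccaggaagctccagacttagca
The letters stood in a promoter of 11 of the 17 called interferon-stimulated genes found in the RefSeq table, of 23 called. Over the whole list, called or not, it was 13 of 21 genes, and over all 27025 genes of the table it was 3.99%. A match describes letters, and no match says only that these letters are not in the window.

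Oas1a, which encodes a sensor of double-stranded RNA, had 11.4, 11.7, 10.2 and 9.28 CPM in hypoxia KO, against 37.2, 36.9, 31.7 and 29.8 CPM in normoxia KO (-1.68 ± 0.11 SE, edgeR adjusted p = 5.16e-07). Its relative Oas2 had 7.36, 8.10, 6.06 and 5.05 CPM in hypoxia KO, against 30.8, 24.4, 24.6 and 24.0 CPM in normoxia KO (-1.97 ± 0.15 SE). Ifit3 and Isg15, antiviral effector genes, were scarce in both groups. Ifit3 had 0.137, 0.236, 0.267 and 0.165 CPM in hypoxia KO and 1.39, 1.10, 1.13 and 1.77 CPM in normoxia KO, and Isg15 had 1.03, 0.844, 1.199 and 0.694 CPM in hypoxia KO and 3.01, 3.30, 3.47 and 3.79 CPM in normoxia KO. The groups were apart in all 4 genes.

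More abundant members fell too. Ddx58, the RIG-I gene, had 34.7, 36.7, 33.0 and 32.2 CPM in hypoxia KO, against 73.9, 64.4, 75.3 and 79.6 CPM in normoxia KO (-1.10 ± 0.09 SE, edgeR adjusted p = 1.73e-06). Irf1, an interferon regulatory factor gene, had 21.3, 21.7, 21.8 and 20.2 CPM in hypoxia KO, against 39.4, 43.0, 45.4 and 55.4 CPM in normoxia KO (-1.11 ± 0.10 SE). Irf7 and Stat2 were lower by smaller amounts (-0.97 and -0.58). Rtp4 had the largest fall of the list (-3.35).

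Genes by which MDSC suppress T cells were higher in 12 of 26 cases and lower in 5. Ptgs2, the cyclooxygenase-2 gene of prostaglandin synthesis, had the largest rise under the rule for named genes. It had 69.5, 70.2, 55.7 and 54.0 CPM in hypoxia KO, against 0.555, 0.590, 1.13 and 0.647 CPM in normoxia KO (6.41 ± 0.19 SE, edgeR adjusted p = 2.60e-09). Nos2, the inducible nitric oxide synthase gene, had 36.3, 30.6, 33.0 and 27.5 CPM in hypoxia KO, against 2.54, 0.629, 3.10 and 2.93 CPM in normoxia KO (3.80 ± 0.30 SE). Arg1, the arginase 1 gene, had 84.1, 44.4, 42.4 and 29.4 CPM in hypoxia KO, against 1.55, 1.14, 7.74 and 3.62 CPM in normoxia KO (3.84 ± 0.54 SE, edgeR adjusted p = 0.000293). Arg1 varied widely within both groups, and still the lowest hypoxia library lay above the highest normoxia library.

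Some surface molecule genes of the list were called higher and others were not called. Cd274, which encodes PD-L1, had 67.2, 57.7, 65.4 and 54.4 CPM in hypoxia KO, against 27.8, 24.0, 27.9 and 26.0 CPM in normoxia KO (1.21 ± 0.09 SE, edgeR adjusted p = 1.57e-06). Trem1, an amplifying receptor gene, had 677, 475, 451 and 352 CPM in hypoxia KO, against 56.1, 57.9, 88.3 and 80.3 CPM in normoxia KO (2.79 ± 0.21 SE). Havcr2, the TIM-3 gene, rose by 1.67. The NADPH oxidase genes Cyba, Ncf1 and Ncf4 were lower (-0.39, -0.31 and -0.43). S100a8, an abundant calcium-binding alarmin gene, had 4641, 4467, 4079.7 and 4783 CPM in hypoxia KO, against 6864, 6542, 9499.6 and 10530.2 CPM in normoxia KO (-0.90 ± 0.15 SE). Its partner S100a9 had 10623, 10748, 10002 and 11369.6 CPM in hypoxia KO and 8754, 13216, 14429.6 and 14274 CPM in normoxia KO, with overlap and no call (-0.25), but a call without normoxia KO replicate 1 (-0.40). The eosinophil and mast cell sums given above were higher in the same libraries.

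Genes of arginine and polyamines, a subject named in the title of the study, did not move together. Of 19 polyamine genes 4 were higher (21.1%) and 3 lower (15.8%), against 24.9% and 23.1% of all genes tested. Without normoxia KO replicate 4, 4 were higher and 5 lower. Without normoxia KO replicate 3, 3 were higher and 1 lower. Odc1, the rate-limiting enzyme of polyamine synthesis, had 65.3, 68.9, 52.7 and 70.3 CPM in hypoxia KO and 67.1, 76.7, 64.9 and 31.2 CPM in normoxia KO (0.10 ± 0.22 SE, edgeR adjusted p = 0.733). Normoxia KO replicate 4 was the low value, and the log2 fold change was -0.12 without it. Slc3a2, a shared chain of amino acid transporters, rose by 0.75, Azin1, an activator of Odc1, fell (-0.41), and Arg2, the mitochondrial arginase gene, was called lower (-0.60). Arg2 lost the call without hypoxia KO replicate 2 or 4 or normoxia KO replicate 3 or 4 (edgeR adjusted p up to 0.0885).

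Of 24 amino acid and ATF4 genes, 7 were higher (29.2%) and 4 lower (16.7%), against 24.9% and 23.1% of all genes tested. The counts were 5 and 7 with libraries scaled by totals and 7 and 8 without normoxia KO replicate 4. Slc7a2, an arginine transporter gene, had 86.2, 64.2, 74.8 and 30.3 CPM in hypoxia KO, against 11.5, 9.91, 11.3 and 9.23 CPM in normoxia KO (2.61 ± 0.27 SE, edgeR adjusted p = 1.97e-05). Ass1, whose enzyme rebuilds arginine from citrulline, was lower, at 48.4, 47.0, 44.4 and 41.8 CPM in hypoxia KO against 144, 148, 137 and 80.4 CPM in normoxia KO (-1.49 ± 0.16 SE). The groups were apart in both genes. Ddit3 and Trib3, which ATF4 raises under stress, changed by 0.91 and 0.59.

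Of 25 IL-6 and STAT3 genes 6 were higher (24%) and 3 lower (12%), against 24.9% and 23.1% of all genes tested. The counts were 5 and 6 with libraries scaled by totals. Stat3 had 317, 306, 321 and 278 CPM in hypoxia KO, against 207, 191, 210.0 and 269 CPM in normoxia KO (0.48 ± 0.11 SE, edgeR adjusted p = 0.0031). Socs3, its feedback inhibitor, had 68.1, 75.8, 97.4 and 66.1 CPM in hypoxia KO and 82.2, 73.8, 76.5 and 93.5 CPM in normoxia KO (-0.09 ± 0.12 SE, edgeR adjusted p = 0.6), with overlapping groups. Socs1, a related inhibitor, was lower, at 3.73, 3.71, 3.47 and 3.77 CPM in hypoxia KO against 20.3, 27.2, 23.3 and 6.25 CPM in normoxia KO (-2.39 ± 0.35 SE). Pim1, a kinase gene downstream of STAT factors, rose by 1.13, and Junb by 1.33. Normoxia KO replicate 4 was the lowest normoxia library for Socs1 and Pim1.

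Of 10 tested genes of the primary granules, which form in early precursors, 5 were higher and 0 lower (median 0.43). With edgeR, 0 were lower at an unadjusted p of 0.05 too, while 2 were lower with libraries scaled by totals. Mpo, the myeloperoxidase gene, had 1257, 1502, 986 and 1191 CPM in hypoxia KO, against 468, 514, 369 and 519 CPM in normoxia KO (1.40 ± 0.14 SE, edgeR adjusted p = 1.27e-05). Elane, the neutrophil elastase gene, had 928, 993, 810.4 and 1021 CPM in hypoxia KO, against 553, 629, 479 and 514 CPM in normoxia KO (0.79 ± 0.10 SE). Myb, a factor of progenitors, rose by 1.21. The hypoxia group was above the normoxia group in each of these, and Prtn3, a further protease gene of the same granules, was not called (-0.01).

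Of 23 genes of later granules and mature neutrophils, 10 were lower and 3 higher (median -0.43). Mmp9, the gelatinase gene, had 409, 337, 319 and 234 CPM in hypoxia KO, against 567, 519, 1064 and 1244 CPM in normoxia KO (-1.39 ± 0.28 SE, edgeR adjusted p = 0.0019). Ly6g, the mouse neutrophil surface marker, had 104, 80.3, 54.6 and 50.0 CPM in hypoxia KO, against 97.7, 105, 187 and 193 CPM in normoxia KO (-1.01 ± 0.28 SE), and its groups overlapped. The Ly6g call was lost without normoxia KO replicate 4 (edgeR adjusted p = 0.0852). Normoxia KO replicates 3 and 4 were high for both genes. Ngp, a secondary granule gene and the most abundant of the list, rose, at 26516, 33923, 26604 and 29123 CPM in hypoxia KO against 13805, 15487, 17816 and 17776 CPM in normoxia KO (0.84 ± 0.12 SE). Formyl peptide receptor genes were lower, with Fpr1 at -0.98 and Fpr2 at -1.27.

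Monocyte and macrophage genes were higher in 12 of 26 cases and lower in 4. Their summed level, scaled by library totals, went the other way. It was 9196 to 12639.7 CPM in hypoxia KO and 13077 to 19059.6 CPM in normoxia KO, without overlap on that scale. Hypoxia KO replicate 1 (12639.7 CPM, TMM factor 0.949) and normoxia KO replicate 2 (13077 CPM, TMM factor 1.07) change order with TMM adjustment. Lyz2, whose lower level is given above, was the most abundant member and made up a large part of the sum. Without the counts of Lyz2 the sums of the KO groups overlapped. Cd14, the lipopolysaccharide co-receptor gene, had 644, 488, 518 and 354 CPM in hypoxia KO, against 77.3, 72.9, 99.0 and 93.0 CPM in normoxia KO (2.55 ± 0.17 SE, edgeR adjusted p = 7.16e-07). The complement genes C1qa, C1qb and C1qc rose by 1.26, 1.69 and 1.79, with hypoxia KO replicate 4 lowest of its group in all 3. Spp1, the osteopontin gene, had 213, 153, 168 and 158 CPM in hypoxia KO, against 82.3, 102, 87.7 and 91.1 CPM in normoxia KO (0.93 ± 0.11 SE). Ly6c2, a marker of inflammatory monocytes, was slightly lower, at 1587, 1631, 1726 and 1845 CPM in hypoxia KO against 2081, 2221, 2044 and 1900.1 CPM in normoxia KO (-0.28 ± 0.08 SE, edgeR adjusted p = 0.0171), with no call without hypoxia KO replicate 1 or 2 (up to 0.0603).

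Of 16 dendritic cell and MHC class II genes, 9 were higher and 1 lower, and 5 and 1 without a filter on low counts. All hypoxia KO libraries lay above all normoxia KO libraries in 2 of the 16, against 23.1% of all genes. Ciita, the master regulator of class II genes, had 22.8, 20.5, 23.9 and 10.3 CPM in hypoxia KO and 6.42, 8.50, 6.02 and 11.8 CPM in normoxia KO (1.24 ± 0.27 SE, edgeR adjusted p = 0.00312). H2-Aa, a class II chain, had 149, 126, 162 and 61.5 CPM in hypoxia KO and 30.1, 49.6, 35.0 and 78.5 CPM in normoxia KO (1.37 ± 0.34 SE). In both genes hypoxia KO replicate 4 fell below normoxia KO replicate 4, so the groups overlapped. Flt3, a progenitor and dendritic cell receptor gene, had 4.45, 1.59, 2.10 and 1.82 CPM in hypoxia KO and 0.0793, 0.157, 0 and 0.172 CPM in normoxia KO (4.54 ± 0.55 SE). Ccr7, the receptor gene that guides dendritic cells to lymph nodes, rose by 1.67, and Batf3, a factor of cross-presenting dendritic cells, fell (-1.13).

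Replication and mitosis genes were lower in 19 of 32 cases and higher in 0, with a median of -0.34. No member was higher at an unadjusted p of 0.05 with edgeR, nor was any called higher by DESeq2 or limma-voom. Aurka, a mitotic kinase gene, had 46.9, 57.7, 47.5 and 62.6 CPM in hypoxia KO, against 93.9, 93.2, 81.1 and 64.6 CPM in normoxia KO (-0.63 ± 0.13 SE, edgeR adjusted p = 0.00227). Ccne1, the cyclin of entry into replication, had 14.8, 19.1, 16.5 and 21.5 CPM in hypoxia KO, against 36.2, 38.5, 34.6 and 22.03 CPM in normoxia KO (-0.87 ± 0.17 SE). The groups were apart in both, with hypoxia KO replicate 4 and normoxia KO replicate 4 nearest each other. Most of the list overlapped, with all hypoxia KO libraries below all normoxia KO libraries in 6 of 32 genes, against 20.6% of all genes. Mki67, a proliferation marker, was not called (-0.34), though DESeq2 called it lower, as did edgeR without hypoxia KO replicate 4 or normoxia KO replicate 2 or 3. Without hypoxia KO replicate 1, or without hypoxia KO replicate 3, 10 were lower, and 27 without normoxia KO replicate 4.

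Chaperone genes and stress regulators of the endoplasmic reticulum were lower in 9 of 20 cases and higher in 3. Dnajb11, a chaperone gene, had 67.8, 79.8, 63.6 and 75.4 CPM in hypoxia KO, against 114, 135, 122 and 99.8 CPM in normoxia KO (-0.71 ± 0.11 SE). Ppp1r15a, which restores translation after stress, rose instead, at 93.2, 91.2, 79.6 and 86.8 CPM in hypoxia KO against 15.3, 13.3, 13.4 and 15.8 CPM in normoxia KO (2.60 ± 0.09 SE, edgeR adjusted p = 7.33e-09). Of 16 NRF2 targets, genes against oxidants, 4 were higher (25%) and 4 lower (25%), near the 24.9% and 23.1% of all genes tested. The counts were 2 and 4 with libraries scaled by totals. Sod2, the mitochondrial superoxide dismutase gene, was lower, at 56.9, 64.6, 64.5 and 62.3 CPM in hypoxia KO against 109.5, 128, 112 and 85.4 CPM in normoxia KO (-0.81 ± 0.11 SE). Of 44 cytosolic ribosomal protein genes 17 were higher and 7 lower, but 8 and 10 with libraries scaled by totals and 15 and 11 without normoxia KO replicate 4. Rps28 fell most, at 91.8, 85.6, 94.0 and 107 CPM in hypoxia KO against 313, 283, 324 and 279.6 CPM in normoxia KO (-1.67 ± 0.09 SE).

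The largest rises under the rule for named genes held 3 genes outside the lists. Rgs1, a regulator of G protein signalling, had 64.6, 56.4, 66.3 and 47.6 CPM in hypoxia KO, against 1.43, 1.10, 1.59 and 1.77 CPM in normoxia KO (5.32 ± 0.16 SE, edgeR adjusted p = 2.60e-09). Pf4, the platelet factor 4 chemokine gene of megakaryocytes, had 57.8, 68.7, 39.6 and 55.9 CPM in hypoxia KO, against 1.15, 1.53, 1.34 and 1.68 CPM in normoxia KO (5.28 ± 0.19 SE). Mid1, a microtubule-associated ubiquitin ligase gene on chromosome X, had 81.8, 72.8, 105 and 129.6 CPM in hypoxia KO, against 1.27, 2.12, 2.34 and 0.517 CPM in normoxia KO (5.95 ± 0.33 SE). Mid1 has a pseudogene copy, Mid1-ps1, on chromosome Y, so the assignment of its reads is uncertain. No library of either group came near the other group in these 3 genes.

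Among the largest falls, Saa3, an acute phase gene, had 13.9, 13.3, 16.4 and 11.4 CPM in hypoxia KO, against 37.0, 48.4, 32.3 and 65.5 CPM in normoxia KO (-1.74 ± 0.20 SE, edgeR adjusted p = 5.33e-05). Hsph1, a heat shock protein gene, had 13.5, 14.7, 7.10 and 11.7 CPM in hypoxia KO, against 42.7, 44.1, 30.6 and 16.5 CPM in normoxia KO (-1.51 ± 0.30 SE). Smpdl3b, Tcaf1 and Arl5c were lower by similar amounts (-1.84, -1.81 and -1.501), and in Smpdl3b, Tcaf1 and Hsph1 normoxia KO replicate 4 was the lowest normoxia library.

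The last question was whether the difference between hypoxia and normoxia was itself different in KO and WT cultures. Time and table change with oxygen in both genotypes, and what they add to both alike cancels in this comparison. Over 16 libraries and 15293 genes, the log2 difference of KO minus that of WT was called for 73 genes (0.477%), above 0 for 29 (0.19%) and below 0 for 44 (0.288%). DESeq2 called 200, and with libraries scaled by totals 42 lay above and 42 below 0. Leaving out 1 library gave 40 to 100. The count moved by over 1.5 times without hypoxia KO replicate 2 (40) or 4 (43), hypoxia WT replicate 1 (41), 2 (46) or 3 (45), normoxia KO replicate 3 (48), or normoxia WT replicate 2 (47) or 4 (40). Without normoxia KO replicate 4, 49 lay above and 46 below 0. Of the lists, HIF targets held 1 called gene, cytokines and chemokines 3, dendritic cell and MHC class II genes 2, and immediate early genes and monocyte genes 1 each. None of 21 glycolysis, 74 nuclear respiratory chain or 27 interferon-stimulated genes was called with edgeR, which does not show that the genotypes responded alike.

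Stc2 was the HIF target. It had 14.6 ± 1.81 CPM in hypoxia KO and 2.23 ± 0.770 CPM in normoxia KO (mean ± SD, n = 4 each), and 13.9 ± 1.91 CPM in hypoxia WT and 5.40 ± 1.16 CPM in normoxia WT. The log2 change was 2.70 in KO and 1.37 in WT, a difference of 1.33 ± 0.26 SE (edgeR adjusted p = 0.0238). The hypoxia levels lay within the SD of each other, and the normoxia level was lower in KO. Ccl4 and Csf1 showed the same arrangement, with differences of 1.12 and 0.92. Jun differed by 0.66, with a higher hypoxia level in KO, 392 ± 26.0 CPM against 275 ± 41.5 CPM in hypoxia WT.

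Acod1, which makes itaconate in macrophages, had 45.7 ± 6.99 CPM in hypoxia KO and 13.4 ± 1.96 CPM in normoxia KO, and 56.5 ± 5.61 CPM in hypoxia WT and 42.8 ± 3.61 CPM in normoxia WT. The log2 change was 1.77 in KO and 0.40 in WT, a difference of 1.37 ± 0.16 SE (edgeR adjusted p = 0.000313). Perp, a p53 target gene, had 19.8 ± 1.87 CPM in hypoxia KO and 4.78 ± 0.813 CPM in normoxia KO, and 15.2 ± 0.561 CPM in hypoxia WT and 9.60 ± 1.28 CPM in normoxia WT, a difference of 1.38 ± 0.17 SE. Normoxia KO was the low group in both genes. Vcam1, an adhesion molecule gene, changed by 1.75 in KO and -0.01 in WT. It had 21.9 ± 4.88 CPM in hypoxia KO and 6.53 ± 2.37 CPM in normoxia KO, and 9.31 ± 1.79 CPM in hypoxia WT and 9.39 ± 2.49 CPM in normoxia WT, a log2 difference of 1.76 ± 0.33 SE (edgeR adjusted p = 0.0227).

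Mid1 and Pgr stood apart in 1 group each. Mid1 had 99.1 ± 25.8 CPM in hypoxia KO and 1.60 ± 0.854 CPM in normoxia KO, and 4.85 ± 0.975 CPM in hypoxia WT and 1.85 ± 0.628 CPM in normoxia WT (4.55 ± 0.46 SE, edgeR adjusted p = 0.000131). Pgr, the progesterone receptor gene, had 9.89 ± 2.55 CPM in hypoxia KO and 17.7 ± 5.99 CPM in normoxia KO, and 1.205 ± 0.229 CPM in hypoxia WT and 16.7 ± 4.204 CPM in normoxia WT (2.96 ± 0.35 SE). Hypoxia KO was the high group for Mid1, and hypoxia WT the low group for Pgr.

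The class II genes Ciita and H2-Ab1 had a smaller log2 change in KO than in WT. Ciita had 19.8 ± 6.30 CPM in hypoxia KO and 8.42 ± 2.80 CPM in normoxia KO, and 22.7 ± 5.74 CPM in hypoxia WT and 1.47 ± 0.675 CPM in normoxia WT (-2.71 ± 0.46 SE, edgeR adjusted p = 0.0138). H2-Ab1 had 116 ± 37.1 CPM in hypoxia KO and 55.5 ± 21.997 CPM in normoxia KO, and 150.1 ± 24.6 CPM in hypoxia WT and 13.1 ± 6.87 CPM in normoxia WT (-2.45 ± 0.49 SE, edgeR adjusted p = 0.0411). The normoxia level was higher in KO in both. Between hypoxia KO and hypoxia WT the ranges of mean ± SD overlapped in both, and the H2-Ab1 mean was lower in KO by more than the SD of hypoxia WT. H2-Aa leaned the same way without a call (-2.55, edgeR adjusted p = 0.0682).

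Ccl17, Vcan and Pira2 had levels below normoxia in hypoxia KO and levels above normoxia in hypoxia WT. Ccl17, a chemokine gene of dendritic cells, changed by -0.96 in KO and 1.06 in WT, at 6.29 ± 0.671 CPM in hypoxia KO, 12.3 ± 3.22 CPM in normoxia KO, 12.5 ± 1.62 CPM in hypoxia WT and 6.01 ± 2.50 CPM in normoxia WT. Vcan, a matrix proteoglycan gene of monocytes, had 301 ± 32.5 CPM in hypoxia KO and 349 ± 136 CPM in normoxia KO, and 313 ± 26.3 CPM in hypoxia WT and 134 ± 14.5 CPM in normoxia WT (-1.43 ± 0.26 SE, edgeR adjusted p = 0.0193). Pira2, of a family of similar receptors between which reads could be split, changed by -1.04 in KO and 0.28 in WT. Without normoxia KO replicate 4 the Vcan change in KO was 0.081. Plet1, a surface protein gene, changed by 0.14 in KO and 2.24 in WT, a difference of -2.10 ± 0.26 SE (edgeR adjusted p = 0.000343). Of the 12 differences named by rule, those of Stc2, Vcam1, H2-Ab1 and Vcan lost their call when single libraries were left out. Over the 16 fits that each left out 1 library, H2-Ab1 lost its call in 12. Vcam1 lost it in 7, Stc2 in 6 and Vcan in 4. The highest edgeR adjusted p was 0.0702 for Stc2 without normoxia KO replicate 3, 0.0637 for Vcam1 without hypoxia WT replicate 1, 0.118 for H2-Ab1 without normoxia WT replicate 4 and 0.0521 for Vcan without hypoxia KO replicate 2.

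**Figure D5:**
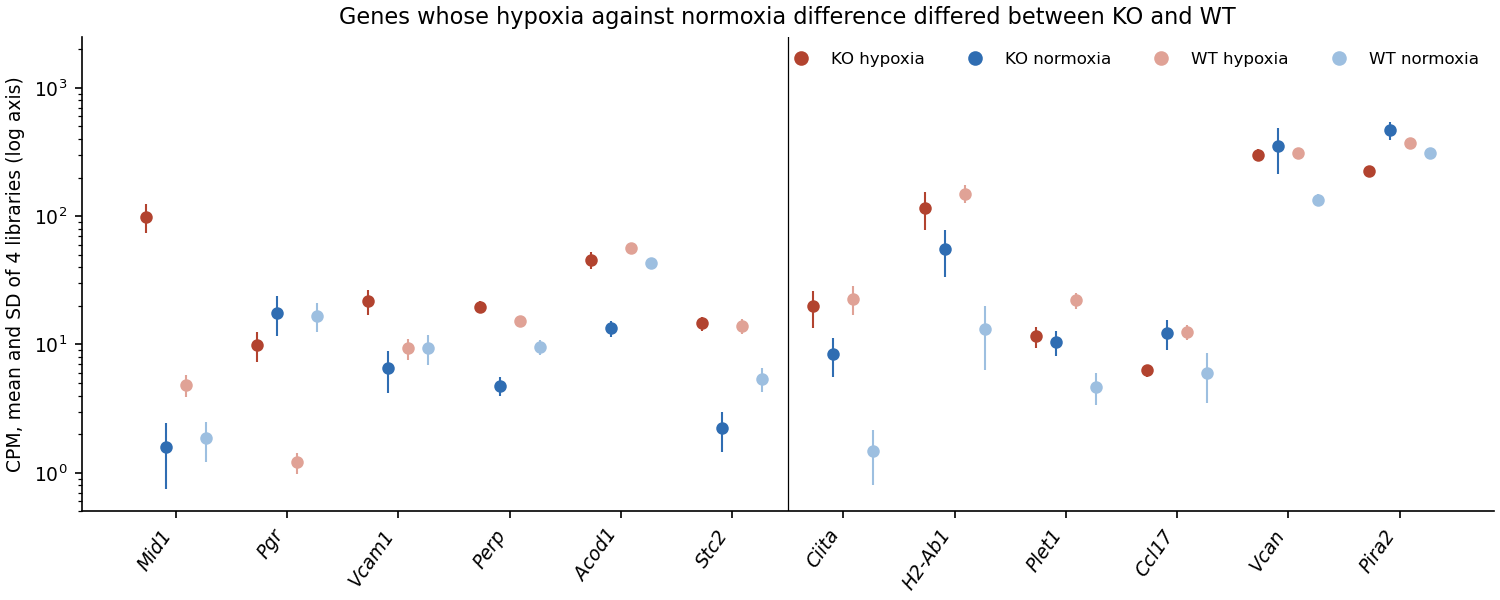
Mean CPM with SD of 4 libraries in each of the 4 culture groups on a log axis, for the 6 named genes with a larger log2 difference between hypoxia and normoxia in KO (left of the line) and the 6 with a smaller one (right of the line). In Acod1, Stc2, Ciita, H2-Ab1 and Vcan the ranges of mean ± SD overlap between the hypoxia groups and not between the normoxia groups.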

How the data were processed

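Per the labels' protocols, libraries were made from total RNA with SMART-Seq chemistry of Takara. The authors deposited raw counts per Ensembl gene, 1 table per experiment, and the submitters' processing notes name Subread, featureCounts and the build GRCm38.p6 without versions. The strand setting is not given in the sources used here. The deposited tables of normalized signal were not used. The columns of the KO libraries carry a code in place of the genotype. As every remaining column says WT, they were taken as the KO libraries.

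Genes listed in both tables were joined, named from GENCODE M21 (GRCm38), and fitted over the 8 KO libraries in R 4.3.3 with edgeR 4.0.16 (filterByExpr, TMM scaling, robust quasi-likelihood test, Benjamini-Hochberg adjustment, threshold 0.05). The test was checked on simulated counts. CPM is a count divided by its TMM-adjusted library size, times 1000000. Summed levels of lists were divided by the library total instead, without TMM adjustment. The difference between KO and WT was an interaction over the 16 culture libraries, scaled together. Promoter sequences came from RefSeq (GRCm38.p6). Named genes were Vsir and a fixed set, the 12 largest rises and 12 largest falls among called genes without overlap and averaging at least 4 log2 CPM, up to 6 genes per list with the smallest p, and the 6 largest differences per direction averaging at least 3 log2 CPM. Further list members were named where needed, after their values were seen. A few named genes and list members are not reported here. The members and lists were chosen with earlier results of these data known. Alternatives were other scalings, filters, fits (DESeq2 1.42.0, limma 3.58.1) and leaving out each library. Replicate libraries differed from each other by more than counting error (the smallest chi-square over its degrees of freedom was 11.8). At these depths levels under 0.1 CPM rest on few reads.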

Additional observations from a re-analysis of the deposited data

Results flagged for a closer look

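The differences between KO and WT in the response to hypoxia, tested as an interaction with edgeR, were called for 15 of the genes described above. The log2 difference, KO minus WT, was 4.55 for Mid1, 2.96 for Pgr, 1.76 for Vcam1, 1.38 for Perp, 1.37 for Acod1, 1.33 for Stc2, 1.12 for Ccl4, 0.92 for Csf1 and 0.66 for Jun. It was -2.71 for Ciita, -2.45 for H2-Ab1, -2.10 for Plet1, -2.03 for Ccl17, -1.43 for Vcan and -1.32 for Pira2. The calls of H2-Ab1, Vcam1, Stc2 and Vcan were lost in several fits that left out 1 library, as given above.

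In 15 groups of 4 libraries, 1 library lay far from the other 3, by a gap that took up more of the range of the group than the 95% critical value of Dixon for 4 samples. With 348 groups looked at, chance alone gives such a gap in about 1 of 20. Among the hypoxia KO libraries, Rtp4 was at 1.197 CPM in replicate 1, and Vsir at 114 CPM (scaled over the 8 KO libraries) and Plet1 at 8.09 CPM in replicate 4. Among the normoxia KO libraries, replicate 4 was the low one for Acly (460.4 CPM), Ass1 (80.4 CPM), Ccl3 (64.4 CPM), Cox4i2 (0.0431 CPM), Nr4a1 (11.6 CPM) and Tcaf1 (16.8 CPM) and the high one for C1qa (5.86 CPM). Replicate 3 was low for Myb (39.2 CPM) and high for Pkm (2026 CPM) and Ptgs2 (1.13 CPM), replicate 1 was high for Oas2 (30.8 CPM), and replicate 2 was high for Plet1 (13.6 CPM). The cause of these values was not tested.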

How the results depend on the processing

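The count of 7015 called genes stayed within 1.5 times under RLE factors, library size alone, other filters, DESeq2, limma-voom, a fit over 16 libraries, thinning, protein-coding genes alone and length offsets (5773 to 7905), and was 6001 to 8205 when 1 library was left out. It was 1998 (1457 higher, 541 lower) in a test against a fold of 1.5. The difference between KO and WT was called for 73 genes, for 200 with DESeq2, for 35 with a replicate block and for 40 to 100 when 1 library was left out. Same-numbered hypoxia and normoxia KO libraries did not deviate together (correlations -0.284 to 0.124, 1 of 4 best with its own number), so the numbers were not taken as pairs. With the replicate block 5895 genes were called, of which 5855 were among the 7015, 12 replication genes, 7 citric acid cycle genes and 6 sterol genes among them.

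Among named genes, 150 were called and 9 of those lost the call when 1 library was left out. Signs turned for Vsir and 9 other genes, of which Vcan, Vsir, Odc1, Hif1a, Ptprc, Ccl6, Klf2, Prtn3 and Vhl turned when 1 library was left out, with log2 fold changes of -0.37 to 0.081, -0.26 to 0.041, -0.12 to 0.23, -0.11 to 0.040, -0.24 to 0.031, -0.15 to 0.099, -0.038 to 0.055, -0.071 to 0.056 and -0.020 to 0.11. With libraries scaled by totals, Klf2 (-0.083), Mxi1 (-0.00400), Odc1 (-0.014) and Vhl (-0.060) turned, as did Prtn3 (0.0059) with at least 1 CPM in 4 libraries and Klf2 (-0.00789) with length offsets. None of these genes was called. The main limits are that oxygen, culture time and table changed together, that the origin of the hypoxia replicates is not described, and that genes under about 0.1 CPM rest on few reads.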

Other observations

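The medians of the lists in WT cultures, taken from the same fit over 16 libraries, can be set beside those in KO cultures. HIF targets had a median log2 change between hypoxia and normoxia of 0.88 in KO and 0.80 in WT, and glycolysis genes 0.93 in KO and 0.80 in WT. Interferon-stimulated genes had -1.13 in KO and -1.16 in WT, and replication genes -0.35 in KO and -0.33 in WT. Immediate early genes had 2.39 in KO and 1.81 in WT, and cytokine genes 2.09 in KO and 1.70 in WT. Complexes III to V of the respiratory chain had -0.43 in KO and -0.19 in WT, and genes of the mitochondrial genome 0.02 in KO and 0.44 in WT. Primary granule genes had 0.42 in KO and 0.04 in WT. Dendritic cell and MHC class II genes had 0.58 in KO and 1.51 in WT. These medians are descriptions, and their differences were not tested.

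Among the genes of the B and plasma cell list, Ighm, the heavy chain gene of IgM, had 107, 126, 92.7 and 86.9 CPM in hypoxia KO, against 55.6, 54.4, 50.7 and 74.8 CPM in normoxia KO (0.81 ± 0.14 SE, edgeR adjusted p = 0.00069). Jchain, which joins IgM and IgA chains, had 2.60, 3.61, 2.80 and 1.42 CPM in hypoxia KO and 2.81, 2.24, 6.28 and 4.01 CPM in normoxia KO, with no call. Nqo1, an NRF2 target against quinones, was lower, at 9.61, 11.5, 16.8 and 13.6 CPM in hypoxia KO against 19.0, 17.9, 20.5 and 18.2 CPM in normoxia KO (-0.55 ± 0.15 SE, edgeR adjusted p = 0.00965).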
